A study of Mus musculus with 9 samples.

Results

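Oxidative phosphorylation genes encode the respiratory chain complexes and the ATP synthase of mitochondria. They were chosen by symbol: protein-coding genes whose symbols begin with mt-, Uqcr, Atp5, Cox4 to Cox8, or Nduf followed by a, b, c, s or v, together with Sdha, Sdhb, Sdhc and Sdhd. The rule gave 110 of the 50813 genes listed, 97 in the nuclear genome and 13 on the mitochondrial chromosome. Another 19 genes matched by symbol but were not protein coding and were left out. The rule takes in 8 assembly factors of complex I (the Ndufaf genes), and it misses Cyc1, the cytochrome c1 of complex III. After a filter on low counts 100 members were tested, 90 nuclear and 10 mitochondrial. The members are named here as genes, and protein, oxygen use and ATP were not measured.

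The study asked which transcripts depend on Cd47 in cultured tumour cells. It sequenced polyadenylated RNA, with directional paired-end libraries, from LLC, a mouse Lewis lung carcinoma line that carries luciferase. Cas9 ribonucleoprotein was electroporated into these cells and single KO clones were grown out, of which E3 and E5 were sequenced beside WT cells, all kept in DMEM with fetal bovine serum. Each of the 3 lines gave 3 libraries, called independent biological replicates by the authors. Since only 1 WT line and 1 clone per KO were sequenced, an effect of the edit and a trait of the clone cannot be told apart, and the replicates measure the spread within a line. Total counts ran from 44257404 to 55095219 per library. The libraries are bulk samples, in which fewer cells expressing a gene and less RNA per cell cannot be told apart. Comparing each clone with WT asks what differs in that clone, and comparing E5 with E3 asks whether the clones differ from each other. Both comparisons against WT use the same 3 WT libraries, so their values are given side by side and are not independent of each other.

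The respiratory chain passes electrons from NADH through complex I, or from succinate through complex II, to complex III and then by cytochrome c to complex IV, where oxygen is reduced. Complexes I, III and IV pump protons across the inner membrane, and ATP synthase, complex V, uses their return flow to make ATP. Complex II is wholly nuclear-encoded, while the other complexes join nuclear subunits to a few made inside mitochondria from their own DNA.

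Cd47 (ENSMUSG00000055447.20, GRCm39 chr16:49620896-49735373) served as the check of labels. Its counts were 9323, 8513 and 8603 in WT, 2371, 1739 and 2255 in E3, and 719, 857 and 977 in E5. All 3 lines were apart at this gene, with E5 below E3 and both below WT. The log2 fold change was -2.03 in E3 and -3.39 in E5 against WT, and -1.36 in E5 against E3. Vim, a mesenchymal gene, had 196385 to 369526 counts per library, and was called higher in both clones, at 0.40 in E3 and 0.66 in E5. The epithelial keratins were expressed too, Krt8 with 1527 to 18904 counts and Krt18 with 4498 to 31515. Both keratins were called lower in E3 (-2.33 and -1.08) and higher in E5 (0.95 and 1.08) against WT. Cdh1 had at most 6 counts. The cell markers of leukocytes summed to 2.66 to 3.47 CPM (counts scaled to the size of the library), most of it from Cd68 with 109 to 159 counts. Muscle genes, listed because Cox6a2 is a muscle isoform, were low, with Myod1 and Myh7 at 0 in every library and Ckm at most 4 counts. Des, the most abundant of them, had 7 to 56 counts.

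E3 replicate 3 stood apart from the other libraries and bears on most values that follow. In it the log2 level of the 90 nuclear members had a median of 0.69 above the mean of E3 replicates 1 and 2, and 88 of the 90 were higher. Over all genes the same median was 0.00, with 50.3% higher. This library differed by transcript length: across 14538 genes the difference from its fellow replicates had a Spearman correlation of -0.622 with canonical transcript length, so short transcripts were high in it; this is across genes, which are not independent replicates. Nuclear members are short, with a median of 1128 bases against 3018 for all genes tested. Among transcripts of 60 to 1449 bases, 54 nuclear members had a median of 0.74 and the other genes 0.33, and among those of 2495 to 3633 bases, 11 members had 0.66 and the other genes 0.03. Those 11 ran from -0.13 for Ndufs1 (3613 bases) and -0.00 for Sdha (3073) to 0.90 for Ndufs6 (3593). The lengths are those of annotated canonical transcripts, and the forms made in these cells were not examined. Whether the members exceed genes of like true length was therefore not tested. The check on length was chosen after the values were seen. Why this library differs was not tested, and RNA integrity, library preparation and the state of the cells cannot be told apart. Counts and values that move most with it are also given without it.

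**Figure D1:**
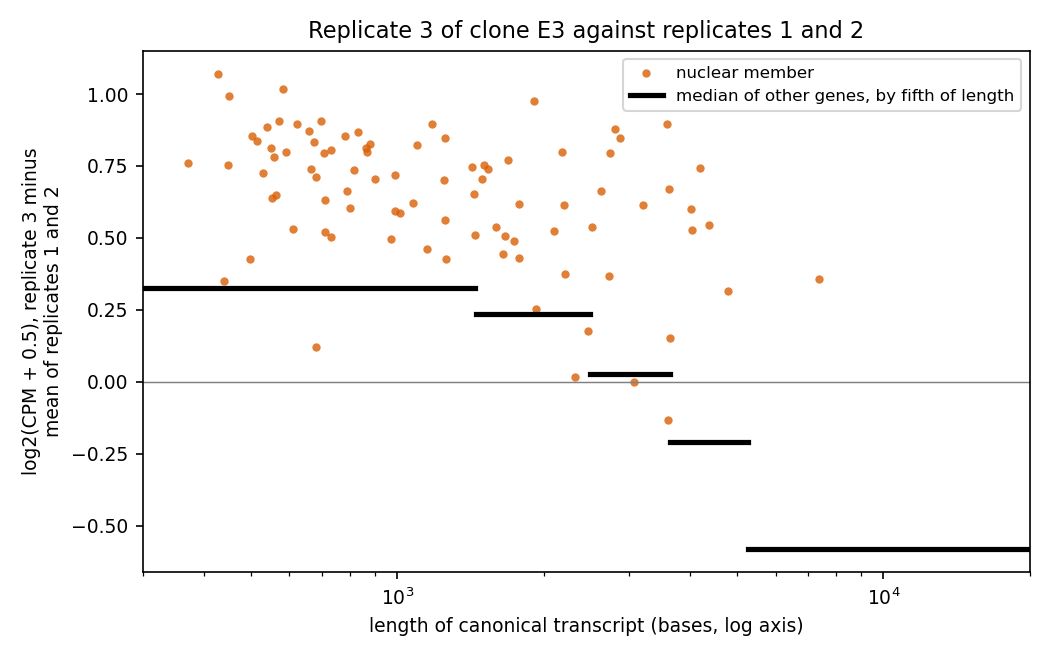
Log2 level in KO E3 replicate 3 minus the mean of replicates 1 and 2 (vertical axis) against canonical transcript length in bases (horizontal log axis) for each nuclear member, with bars for the median of all other genes in each of 5 bins of length. The bars fall from 0.33 for the shortest transcripts to -0.58 for the longest, and 88 of the 90 nuclear members lie above 0.

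Levels per kilobase of the annotated canonical transcript rank the nuclear subunits of the complexes. Whether those lengths hold in these cells was not tested. In WT the median was 117 CPM per kb for 13 subunits of complex IV, 86.0 for 17 of complex V, 51.2 for complex II, 49.1 for complex III and 37.9 for 37 of complex I. The same medians in E3 were 126, 95.3, 66.8, 54.0 and 43.3, and in E5 they were 112, 81.6, 55.6, 56.9 and 43.4. The E3 medians include replicate 3, in which every complex was raised, and were not taken without it. Complexes IV and V were highest in each line.

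Library by library, the nuclear members moved together most in E3 replicate 3, and less so elsewhere. Above the mean of WT lay 69 of the 90 in WT replicate 1, 18 in WT replicate 3, and 61 to 65 in the E5 libraries. Of the 14593 genes tested, 7057 and 7562 lay above it in WT replicates 1 and 3. The correlation with length described above was -0.179 in WT replicate 1 and 0.18 in WT replicate 3. Relative to the mean of WT, their median log2 level was 0.07, 0.00 and -0.07 in the WT libraries, -0.01, -0.01 and 0.67 in E3, and 0.14, 0.10 and 0.08 in E5. E3 replicates 1 and 2 lay inside the range of WT, E3 replicate 3 lay far above it, and the E5 libraries lay just above it. Within E3 replicate 3 every complex was raised, with medians of 0.67 for complex I, 0.53 for II, 0.65 for III, 0.77 for IV and 0.64 for V.

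**Figure D2:**
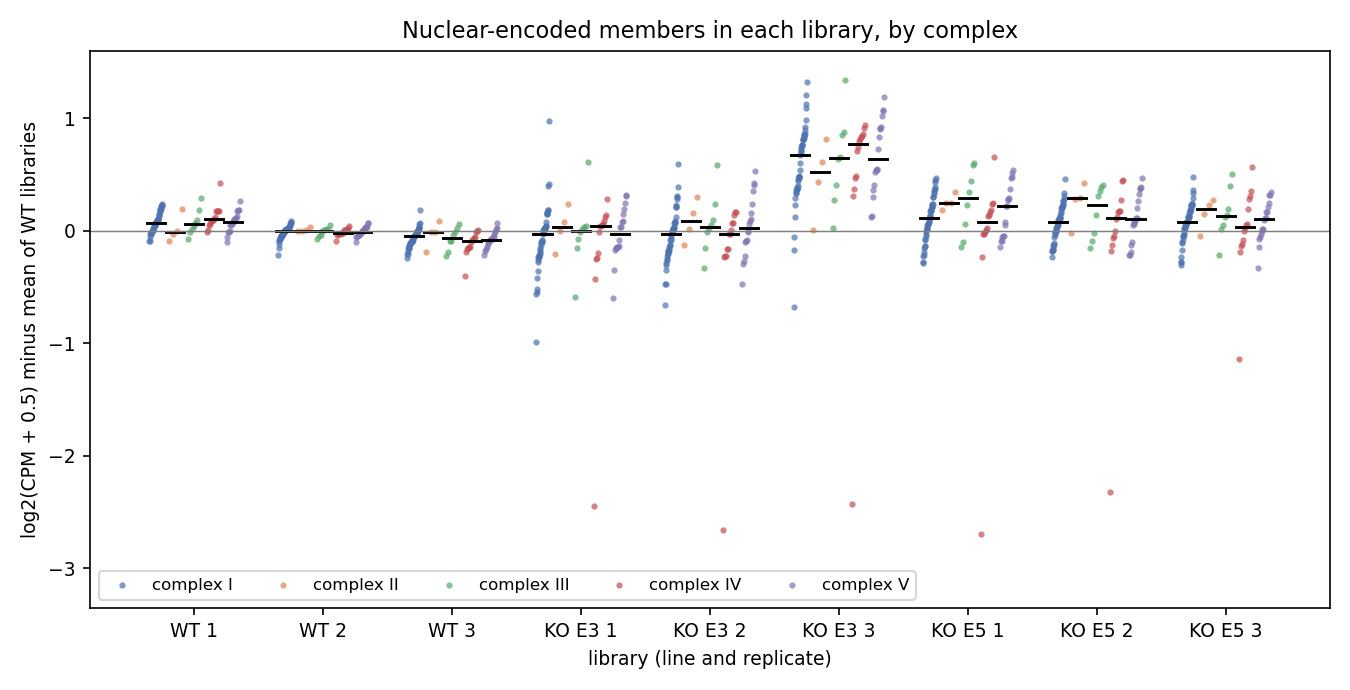
Log2(CPM + 0.5) of each tested nuclear member assigned to a complex minus its mean in WT (vertical axis) in the 9 libraries of WT, KO E3 and KO E5. Dots are coloured by complex and a black bar marks the median of each complex. Over all tested nuclear members, which is not drawn, the median is 0.67 in KO E3 replicate 3 and between -0.07 and 0.14 in all other libraries.

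In E3 against WT, 7 of the 90 nuclear members rose and 2 fell at a false discovery rate of 0.05, where 15.7% of all genes tested rose, 14.7% fell and 30.5% did either. Of these Ndufv3 and Cox6a2 were called with a log2 change beyond 1, where 9.82% of all genes were. DESeq2 called 16 members (34.2% of all genes), and 24 had an unadjusted p below 0.05 (41.4% of all genes). The median log2 fold change of the nuclear members was 0.26 against 0.01 for all genes, and 74 of 90 were positive. That median rests on E3 replicate 3. Without it the median was -0.04 and 42 of 91 were positive, so the direction turned. The 9 calls all held their direction without it, but the spread within E3 shrank and 11 members rose and 17 fell, where 21.8% and 21.5% of all genes did (43.2% either way, 9.67% called with a log2 change beyond 1). The count of 9 became 5 without WT replicate 2, 20 without E3 replicate 1 and 19 without E3 replicate 2, where 19.3%, 27.0% and 31.8% of all genes were called.

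In E5 against WT, 3 of the 90 rose and 1 fell, where 8.96% of all genes rose, 11.7% fell and 20.6% did either. Cox6a2 alone was called with a log2 change beyond 1, as 8.21% of all genes were. The median was 0.11 (all genes -0.00), 62 of 90 were positive, 12 had an unadjusted p below 0.05 (33.5% of all genes) and DESeq2 called 6 (25.2% of all genes). Because all 3 lines share a fit, the spread within E3 reaches into this comparison. Without E3 replicate 3, 25 rose and 4 fell (all genes 20.8%, 21.2% and 42.0%, with 9.09% called beyond a log2 change of 1). With only WT and E5 fitted, 28 rose and 6 fell (all genes 23.5%, 23.3% and 46.8%, with 8.62% called beyond a log2 change of 1). The median stayed near 0.11 without that library, so what moved was the number passing, not the size. The count of 4 fell to 2 without WT replicate 1 or WT replicate 3 (all genes 13.1% and 12.9%), and to 1 without WT replicate 2, E5 replicate 1 or E5 replicate 2 (11.9%, 12.8% and 12.3%). With the replicate number as a block 0 rose and 1 fell, where 15.8% of all genes were called. The rises of Atp5f1a, Sdha and Cox7b were not called there.

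Tested directly, E5 against E3 gave 5 members higher and 5 lower in E5 of 90, where 14.7% of all genes were higher, 17.2% lower and 31.9% either. None of the 90 was called by edgeR with a log2 change beyond 1, which 11.0% of all genes were; at unadjusted p below 0.05 and any size there were 13 members (42.8% of all genes) and DESeq2 called 11 (35.8%). The median was -0.14 (all genes -0.01), and without E3 replicate 3 it turned to 0.16, with 34 higher and 5 lower (all genes 22.4%, 21.7% and 44.1%, with 10.6% called beyond a log2 change of 1). Leaving out E3 replicate 1 gave a median of -0.27, and leaving out E3 replicate 2 gave -0.26. The 10 calls became 6 without WT replicate 2, 5 without E5 replicate 1, 3 without E5 replicate 2 and 4 without E5 replicate 3, where 26.6%, 24.6%, 21.7% and 22.8% of all genes were called. When only the clones were fitted, the calls of Ndufa3, Ndufb4, Sdha, Cox8a, Atp5f1b, Atp5f1c and Atp5me were lost, and upper-quartile scaling lost those of Ndufb4, Sdha and Atp5f1b, the last also lost with a minimum of 10 counts in all libraries. Upper-quartile scaling moved the median of all genes in this comparison to -0.10, and the nuclear members then had -0.25, which is -0.14 relative to all genes.

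**Figure D3:**
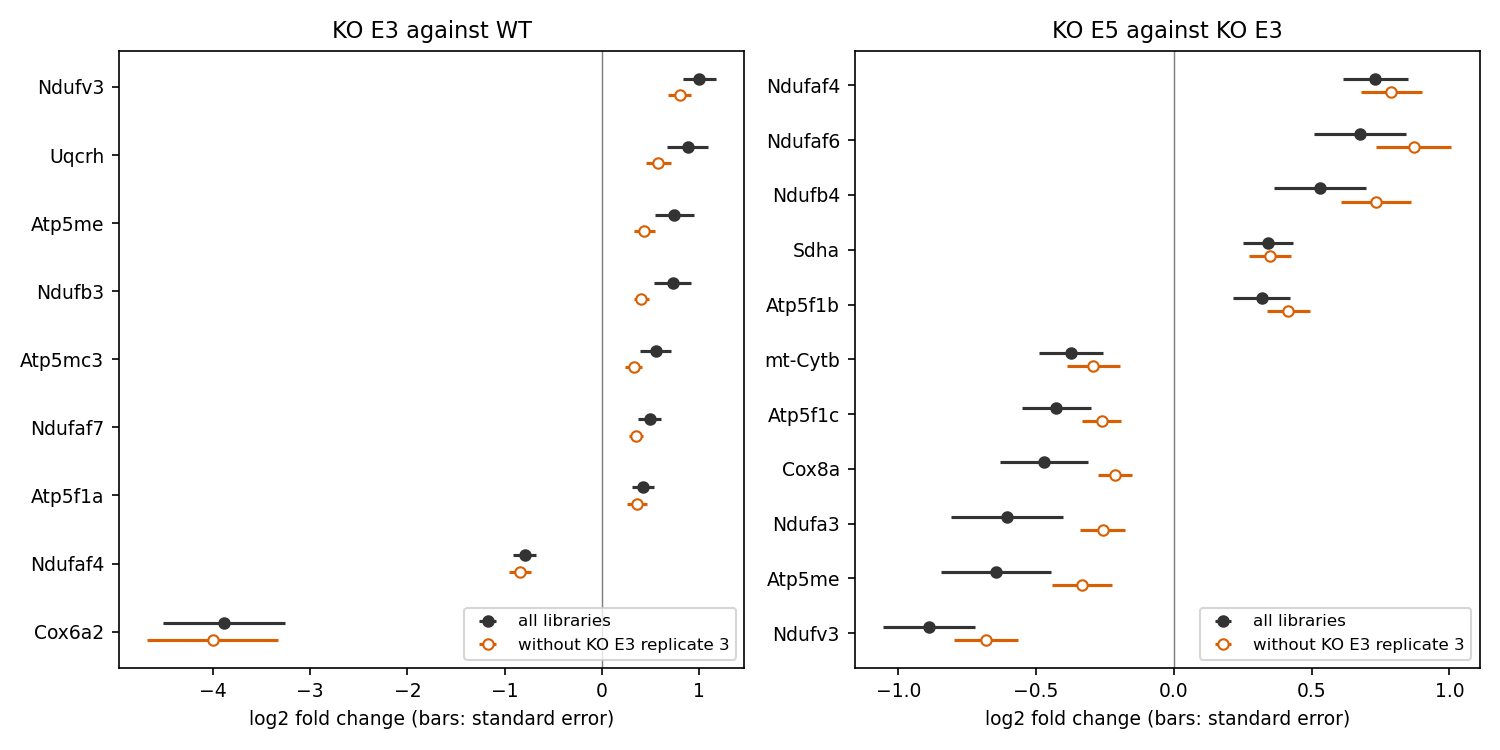
Log2 fold change with its standard error (horizontal axis) of members called in KO E3 against WT or in E5 against E3, with and without KO E3 replicate 3. Cox6a2 goes from -3.89 to -4.00 and Ndufv3 from 1.00 to 0.80 in KO E3 when the library is left out.

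Promoters were looked at for sites that published work links to respiratory genes. Those of RefSeq GRCm38.p6 (250 bases before the start to 50 after it) were matched to 76 of the 97 nuclear members, 13 of them through older symbols, and Cox6a2 was among the 21 without a match. Each gene was counted once, if any of its promoters held the word. The NRF1-like word GCGCATGCG, read on both strands, was in 10 of the 76, or 13.2%, against 1.95% of all genes with a promoter there and 4.10% of the tested ones. Its looser form GCGCANGCG, which contains it, was in 28.9% against 7.03% and 15.3%. The ETS-like word CCGGAAG was in 23.7% against 9.93% and 20.3%, and the YY1-like word AAGATGGCG in 10.5% against 1.64% and 3.59%. Words and promoters were chosen after the values were seen, and binding was not measured. The promoters of 4 members that changed are printed in the direction of transcription, with capitals for these words. Ndufv3 has none, Uqcrh has CCGGAAG on the other strand as CTTCCGG, Ndufaf4 has GCGCATGCGC, which reads the same on both strands, and Sdha has 3 of the loose form.
Ndufv3 (GRCm38.p6 chr17:31519865-31520164, + strand): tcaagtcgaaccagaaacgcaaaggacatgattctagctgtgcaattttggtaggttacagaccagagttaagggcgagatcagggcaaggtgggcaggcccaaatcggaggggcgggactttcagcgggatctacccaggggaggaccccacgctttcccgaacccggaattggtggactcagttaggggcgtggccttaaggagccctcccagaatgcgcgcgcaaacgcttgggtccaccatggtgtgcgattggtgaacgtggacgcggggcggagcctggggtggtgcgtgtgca
Ndufaf4 (GRCm38.p6 chr4:24897833-24898132, + strand): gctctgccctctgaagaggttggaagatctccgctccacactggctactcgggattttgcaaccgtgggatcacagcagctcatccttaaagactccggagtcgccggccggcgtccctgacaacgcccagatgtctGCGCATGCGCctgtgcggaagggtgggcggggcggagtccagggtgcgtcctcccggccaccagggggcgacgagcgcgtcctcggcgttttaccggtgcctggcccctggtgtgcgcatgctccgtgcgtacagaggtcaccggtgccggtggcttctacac
Sdha (GRCm38.p6 chr13:74350191-74350490, - strand): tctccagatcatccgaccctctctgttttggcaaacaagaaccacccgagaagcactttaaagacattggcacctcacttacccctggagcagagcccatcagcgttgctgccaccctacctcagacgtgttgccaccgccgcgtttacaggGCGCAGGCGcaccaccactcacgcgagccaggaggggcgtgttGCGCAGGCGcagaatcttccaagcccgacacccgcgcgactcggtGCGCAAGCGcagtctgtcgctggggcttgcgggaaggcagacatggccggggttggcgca
Uqcrh (GRCm38.p6 chr4:116075021-116075320, - strand): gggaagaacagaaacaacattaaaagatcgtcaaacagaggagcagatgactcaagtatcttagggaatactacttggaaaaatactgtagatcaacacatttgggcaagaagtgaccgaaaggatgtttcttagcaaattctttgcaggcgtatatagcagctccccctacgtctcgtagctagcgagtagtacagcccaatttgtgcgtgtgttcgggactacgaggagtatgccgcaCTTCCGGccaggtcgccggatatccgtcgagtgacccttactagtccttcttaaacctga

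Complex I oxidises NADH and has 45 nuclear members, assembly factors included. In E3 against WT 3 rose and 1 fell (median 0.20), in E5 edgeR called 0 (3 at unadjusted p below 0.05, 1 by DESeq2; median 0.08), and between the clones 3 were higher and 2 lower in E5. The E3 counts were 5 and 9 without E3 replicate 3, with a median of -0.05, those in E5 were 10 higher and 2 lower, and those between the clones 18 and 2. Beside the counts of this and each other complex, 30.5% of all genes were called in E3, 20.6% in E5 and 31.9% between the clones. Without E3 replicate 3 these shares were 43.2%, 42.0% and 44.1%. Ndufv3 (ENSMUSG00000024038.18, GRCm39 chr17:31739089-31750305) encodes a small accessory subunit of the part that binds NADH. Its level was 27.0, 22.4 and 21.7 CPM in WT, 46.9, 35.9 and 59.8 in E3, and 25.98, 26.33 and 24.74 in E5. Every E3 library was above every WT and E5 library, while WT and E5 overlapped. The log2 fold change was 1.00 ± 0.17 (SE) in E3 (adjusted p 0.0015) and -0.89 ± 0.17 in E5 against E3 (adjusted p 0.0027). Leaving out any library kept both calls, and without E3 replicate 3 the E3 value was 0.80.

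Ndufb3, an accessory subunit of the membrane arm, was 35.5, 32.5 and 31.2 CPM in WT, 44.3, 43.5 and 76.7 in E3, and 43.4, 41.7 and 40.5 in E5. Both clones lay above WT, with E3 replicate 3 far above the rest. The rise in E3 was 0.73 ± 0.19 (adjusted p 0.017), and 0.41 without E3 replicate 3, over 1.5 times smaller. It was not called without WT replicate 2 or WT replicate 3, where adjusted p was 0.0601 to 0.0652, or with only WT and E3 fitted. Ndufaf7, a methyltransferase that acts in complex I assembly and was picked after the values were seen, had 29.8, 31.9 and 29.3 CPM in WT, 40.2, 37.4 and 50.4 in E3, and 37.4, 36.5 and 35.2 in E5. Both clones were above WT in every library. It rose in E3 by 0.49 (adjusted p 0.0095), by 0.35 without replicate 3, and was called whichever library was left out.

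Ndufaf4 (ENSMUSG00000028261.14, GRCm39 chr4:24898083-24905001), an early assembly factor, moved the other way. It had 18.1, 20.2 and 19.8 CPM in WT, 9.496, 12.07 and 11.94 in E3, and 19.6, 17.3 and 18.7 in E5. The E3 libraries, replicate 3 included, were all below the other 6, and E5 overlapped WT. It fell in E3 by a log2 fold change of -0.79 ± 0.12 (adjusted p 7.7e-04) and was higher in E5 than in E3 by 0.73 ± 0.12 (adjusted p 0.0011), and both calls held whichever library was left out. Ndufaf6, another assembly factor, had 7.29, 6.10 and 5.70 CPM in WT, 4.12, 4.44 and 6.07 in E3, and 8.30, 7.55 and 7.51 in E5. Each E5 library was above all the others, and E3 replicate 3 fell among WT. Neither clone passed against WT (-0.39 in E3, 0.29 in E5), and E5 was above E3 by 0.68 ± 0.17 (adjusted p 0.011). Without E3 replicate 3 Ndufaf6 was called lower in E3, at -0.58.

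Between the clones, the accessory subunits Ndufb4 and Ndufa3 also differed. Ndufb4 was 10.5, 9.36 and 7.89 CPM in WT, 7.76, 7.35 and 10.9 in E3, and 12.95, 11.54 and 13.02 in E5. The E5 libraries were the highest of the 9. Its difference was 0.53 ± 0.17 (adjusted p 0.033), lost (adjusted p 0.052 to 0.0949) without WT replicate 2, E3 replicate 1, E3 replicate 2 or each E5 replicate in turn. Ndufa3 was 27.8, 24.7 and 27.8 CPM in WT, 27.1, 26.6 and 48.4 in E3, and 21.9, 23.6 and 21.6 in E5. E5 lay below all the others, and E3 replicate 3 was alone at the top. Its difference was -0.61 ± 0.20 (adjusted p 0.044), lost on leaving out any WT or E5 library (adjusted p 0.0605 to 0.125), and it was -0.26 without E3 replicate 3.

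Complex II oxidises succinate and has 4 members. In E3 edgeR called 0 of them (2 at unadjusted p below 0.05, 1 by DESeq2), and 1 was called in E5 and 1 between the clones, the same gene. When E3 replicate 3 was left out 1 rose and 1 fell in E3, 3 rose in E5 and 2 were higher in E5 than in E3. Sdha (ENSMUSG00000021577.15, GRCm39 chr13:74470373-74498399), the flavoprotein subunit, had 387.3, 411.7 and 437.8 CPM in WT, 411.2, 415.6 and 413.0 in E3, and 523.5, 552.0 and 496.5 in E5. WT and E3 overlapped, E3 replicate 3 with them, and each E5 library was above both. Per kilobase this was 134 ± 8.21 (SD, n = 3) in WT, 134 ± 0.722 in E3 and 170 ± 9.02 in E5. The rise in E5 was 0.35 ± 0.09 against WT (adjusted p 0.021) and 0.34 ± 0.09 against E3 (adjusted p 0.015), and E3 itself was at 0.00. The call against WT was lost without WT replicate 1, WT replicate 2, E5 replicate 1 or E5 replicate 2 (adjusted p 0.0699 to 0.109) and with no filter on low counts. That against E3 was lost without E5 replicate 2 (adjusted p 0.0785), with only the clones fitted and under upper-quartile scaling. Sdhb, the iron-sulphur subunit, was not called and was at -0.17 in E3 without E3 replicate 3, where it was called lower.

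Complex III passes electrons from ubiquinol to cytochrome c and has 8 nuclear members, of which 1 rose in E3. In E5 edgeR called 0 (2 at unadjusted p below 0.05, 0 by DESeq2), and between the clones 0 (0 and 0). When E3 replicate 3 was left out 1 rose and 1 fell in E3, 4 of the 8 rose in E5 and 4 were higher in E5 than in E3. Uqcrh (ENSMUSG00000063882.13, GRCm39 chr4:115924162-115932268), the acidic hinge protein that binds cytochrome c1, had 42.9, 33.1 and 29.7 CPM in WT, 53.4, 52.3 and 89.0 in E3, and 52.5, 44.6 and 49.6 in E5. All KO libraries were above all WT libraries, and E3 replicate 3 was the highest. The rise in E3 was 0.88 ± 0.21 (adjusted p 0.0097) and 0.58 without E3 replicate 3, over 1.5 times smaller, and the call held whichever library was left out. E5 did not pass against WT (0.47, adjusted p 0.14) but was called without E3 replicate 3 (0.48). E5 against E3 did not pass (-0.41, adjusted p 0.16), and was -0.10 without E3 replicate 3.

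Complex IV reduces oxygen, and 14 of its 20 nuclear members were tested. Of these 1 fell in E3, 1 rose and 1 fell in E5, and 1 was lower in E5 than in E3. With E3 replicate 3 left out, 4 of 15 fell in E3, 2 rose and 2 fell in E5, and 4 were higher and 1 lower in E5 than in E3. Cox6a2 (ENSMUSG00000030785.9, GRCm39 chr7:127804607-127805559), the heart and skeletal muscle form of subunit 6A, was weakly expressed, at 266, 180 and 132 counts in WT, 15, 9 and 14 in E3, and 8, 17 and 80 in E5. That is 5.33, 3.79 and 2.79 CPM in WT, 0.300, 0.190 and 0.308 in E3, and 0.172, 0.369 and 1.48 in E5. Every KO library was below every WT library, and E5 replicate 3 stood above the other KO libraries. It fell in both clones, with a log2 fold change of -3.89 ± 0.62 for E3 at an adjusted p of 0.0012 and of -2.52 ± 0.55 for E5 at an adjusted p of 0.0088. Without E5 replicate 3 the E5 value was -3.86, over 1.5 times larger. The difference between the clones was not called (1.37, adjusted p 0.157, and 0.048 to 0.977 over the alternatives), except without E5 replicate 1, where it was 1.81. Cox6a1, the form made in most tissues, had 91.7, 88.6 and 84.9 CPM in WT, 87.8, 78.8 and 156.3 in E3, and 75.3, 80.7 and 77.2 in E5. Only E3 replicate 3 was high, and no comparison passed (0.28 in E3, -0.19 in E5, -0.47 between the clones). Leaving out that library turned the E3 value to -0.09, gave -0.09 between the clones, and made the -0.18 in E5 against WT a call. Leaving out E3 replicate 2 made the difference between the clones a call. Per kilobase Cox6a2 was 5.83 ± 1.88 in WT (SD, n = 3) beside 155 for Cox6a1, so the muscle form was the minor one.

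Cox7b had 48.4, 41.9 and 38.5 CPM in WT, 47.1, 48.0 and 71.8 in E3, and 67.7, 58.5 and 63.4 in E5. E5 was above WT throughout, and E3 reached E5 only in replicate 3. The rise in E5 was 0.56 ± 0.16 (adjusted p 0.036), lost without WT replicate 2, WT replicate 3 or each E5 replicate in turn (adjusted p 0.0686 to 0.136) and under upper-quartile scaling. E5 against E3 did not pass (0.18) but was 0.42 and called without E3 replicate 3. Cox8a had 140.7, 141.2 and 138.9 CPM in WT, 152.7, 157.8 and 243.5 in E3, and 137.2, 134.4 and 127.9 in E5. All E3 libraries were above all others. E5 was lower than E3 by -0.47 ± 0.16 (adjusted p 0.045), lost on leaving out any WT or E5 library (adjusted p 0.0673 to 0.133), and it was -0.21 without E3 replicate 3.

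Other tissue forms of complex IV subunits were close to absent. Cox7b2, Cox8b and Cox8c had 0 counts in every library, where about 3 counts are the least that could be told from none, Cox4i2 had at most 1 and Cox6b2 at most 2. Cox7a1 had 4 to 16 counts and did not pass. Cox4i1, the main form of subunit 4, had 273.6, 244.0 and 212.9 CPM in WT, 250.8, 253.7 and 456.8 in E3, and 272.2, 273.6 and 295.4 in E5, and was called in no comparison. WT overlapped both clones, E5 lay above E3 replicates 1 and 2, and E3 replicate 3 was far above all others. E5 against E3 went from -0.19 to 0.16 without that library. Cox5b and Ndufa4 were not called either, and without E3 replicate 3 both were called lower in E3, at -0.24 and -0.25. The remaining nuclear members left untested were Ndufa4l2, with 1 to 12 counts, and Ndufb11b, a complex I-like copy with 0.

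ATP synthase has 18 nuclear members, of which 3 rose in E3, 1 rose in E5, and 1 was higher and 2 lower in E5 than in E3. With E3 replicate 3 left out, 4 rose and 2 fell in E3, 6 rose in E5, and 6 were higher and 2 lower in E5 than in E3. Atp5f1a (ENSMUSG00000025428.16, GRCm39 chr18:77861429-77870569), the alpha subunit of the catalytic head, had 670.6, 735.2 and 753.3 CPM in WT, 889.6, 963.0 and 1047 in E3, and 1043, 992.3 and 832.0 in E5. The KO libraries were all above WT, and the clones overlapped. It rose in both clones against WT, by 0.43 ± 0.11 for E3 with an adjusted p of 0.018 and by 0.41 ± 0.11 for E5 with an adjusted p of 0.03, while E5 against E3 was not called (-0.02, adjusted p 0.93). The E3 call was lost without WT replicate 1 or WT replicate 2 (adjusted p 0.0622 to 0.0796), and the E5 call without each WT library in turn, E5 replicate 1 or E5 replicate 2 (adjusted p 0.0708 to 0.123). Leaving out E3 replicate 3 gave 0.36 in E3, which was called.

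Atp5f1b, the beta subunit that carries the catalytic sites, had 1656, 1761 and 1741 CPM in WT, 1544, 1619 and 1885 in E3, and 2100, 2152 and 2044 in E5. E5 was above every other library, and E3 overlapped WT. Neither clone passed against WT (-0.03 in E3, and 0.29 with adjusted p 0.075 in E5), although E5 was called by DESeq2 and without E3 replicate 3. E5 was above E3 by 0.32 ± 0.10 (adjusted p 0.038), a call kept only when E3 replicate 3 was the library left out (otherwise adjusted p 0.0557 to 0.118). Atp5f1c, the gamma subunit of the rotor, had 230.3, 227.2 and 210.6 CPM in WT, 234.8, 248.2 and 325.0 in E3, and 209.1, 191.4 and 200.8 in E5. The E5 libraries were the lowest. E5 was below E3 by -0.43 ± 0.12 (adjusted p 0.025), lost without E5 replicate 1, E5 replicate 2 or E5 replicate 3, at adjusted p up to 0.0965, and -0.26 without E3 replicate 3.

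Atp5me, a small subunit at the dimer interface, had 16.5, 14.2 and 15.1 CPM in WT, 19.2, 22.2 and 35.3 in E3, and 17.8, 16.6 and 14.7 in E5. The E3 libraries were above all others, replicate 3 far above. The rise in E3 was 0.74 ± 0.20 (adjusted p 0.018), or 0.44 without E3 replicate 3, over 1.5 times smaller, and was lost without WT replicate 2 or WT replicate 3 (adjusted p 0.0599 to 0.0708). E5 was below E3 by -0.64 ± 0.20 (adjusted p 0.032), lost on leaving out any E5 replicate (adjusted p 0.0537 to 0.113), and -0.33 without E3 replicate 3. Atp5mc3, a gene for the membrane ring and picked after the values were seen, also rose in E3, by 0.55 (adjusted p 0.024), or 0.33 without E3 replicate 3. Its levels were 190.8, 202.3 and 184.7 CPM in WT, 228.8, 255.1 and 364.5 in E3, and 249.3, 231.6 and 208.8 in E5, both clones above WT throughout. The call was lost without WT replicate 1, WT replicate 2 or WT replicate 3, at adjusted p up to 0.0864, and with only WT and E3 fitted. Atp5me is among 7 of the 97 nuclear members with a processed copy elsewhere in the genome (96.09% identical), the others being Uqcrb, Atp5mc1, Atp5mc2, Cox6c, Ndufs5 and Cox5b-ps, and counts of these could mix with their copies.

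**Figure D4:**
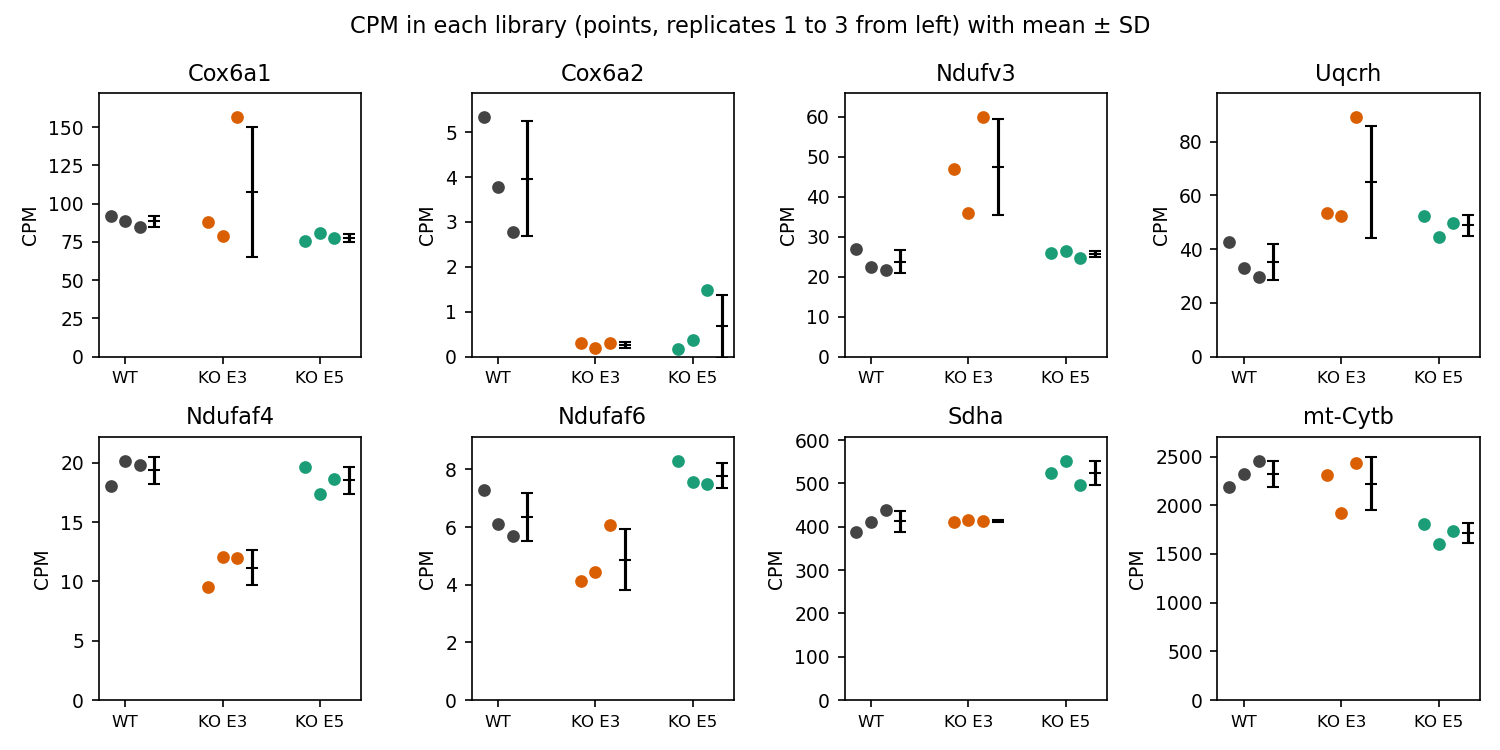
CPM of Cox6a1, Cox6a2, Ndufv3, Uqcrh, Ndufaf4, Ndufaf6, Sdha and mt-Cytb (vertical axes) in the 3 libraries of each of WT, KO E3 and KO E5, as dots with the mean and SD. Cox6a2 is 5.33, 3.79 and 2.79 in WT and at most 1.48 in the KO libraries.

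The 13 mitochondrial genes fell into 2 sets by level, and the sets follow a copy of mitochondrial DNA on chromosome 1. In GRCm39 the segment chrM:6390-11042 is repeated at chr1:24650616-24655269, on the - strand, with 99.94% identity over 4654 aligned columns. The pair differ by 1 gap and by 2 bases, A6393T in mt-Co1 and T9461C in mt-Nd3, counted from base 1 of chrM with the chrM base first and the chromosome 1 base second. The 6 genes wholly inside it (mt-Co2, mt-Atp8, mt-Atp6, mt-Co3, mt-Nd3 and mt-Nd4l) had 1 to 60 counts per library, while the other 7 had 1458 to 301045. Reads from either place in such a segment cannot be told apart. How reads that align in several places were counted is not given in the sources used here, and whether this set the low counts was not tested. The segment also covers 876 bases, or 63.6%, of mt-Nd4 and 483 bases, or 31.3%, of mt-Co1, and whether their counts lost or gained reads by it was not tested. For the rest the nearest nuclear copies are less alike, such as a copy of mt-Cytb on chr4 with 92.91% identity over 99.9% of it. A copy on chr2 covers all of mt-Co1 with 97.61% identity, and another there covers 49.2% of mt-Nd2 with 96.67%. The windows below, 60 bases each from GRCm39, show a gene of each kind with its copy. Capitals mark the bases at which the pair differ, 0 for mt-Co3 and 4 for mt-Cytb.
mt-Co3 (chrM:8667-8726, + strand): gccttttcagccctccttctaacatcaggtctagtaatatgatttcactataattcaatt
copy of mt-Co3 (chr1:24652933-24652992, - strand): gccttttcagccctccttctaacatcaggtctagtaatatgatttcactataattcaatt
mt-Cytb (chrM:14206-14265, + strand): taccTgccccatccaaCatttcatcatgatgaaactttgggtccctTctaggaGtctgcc
copy of mt-Cytb (chr4:79922287-79922346, + strand): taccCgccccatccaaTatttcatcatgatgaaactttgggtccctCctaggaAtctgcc

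Counts for mt-Nd3, mt-Nd4l and mt-Atp8 were too low to test, and those of mt-Co2, mt-Co3 and mt-Atp6 (0.52 to 1.32 CPM) cannot be read as levels of these genes. In E3 against WT edgeR called 0 of 10 mitochondrial genes (1 at unadjusted p below 0.05, 0 by DESeq2). Of all genes 30.5% were called there (41.4% at unadjusted p below 0.05, 34.2% by DESeq2). The median of the 10 was 0.03, and without E3 replicate 3 it was -0.09, again with 0 called (0 at unadjusted p below 0.05). It was 0.13 without E3 replicate 2 and 0.01 without WT replicate 2, with 0 called in each. Without E3 replicate 1, 1 was called, mt-Nd6, at 0.49. In E5 against WT 1 of 10 fell, where 20.6% of all genes were called (median -0.18, or -0.0998 without E5 replicate 3, with 0 called). In E5 against E3 1 was lower in E5, where 31.9% of all genes were called (median -0.24, or -0.11 without E3 replicate 3). Both times the gene was mt-Cytb. Over the 7 genes not wholly inside the copied segment the medians were 0.00 in E3, -0.18 in E5 and -0.08 in E5 against E3, and without E3 replicate 3 they were -0.07, -0.17 and -0.13.

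mt-Cytb (ENSMUSG00000064370.1, GRCm39 chrM:14145-15288), the cytochrome b of complex III, had 2188, 2325 and 2455 CPM in WT, 2309, 1919 and 2438 in E3, and 1812, 1602 and 1734 in E5. E3 overlapped WT, and every E5 library was below all the others. Per kilobase it was 2030.0 ± 116 (SD, n = 3) in WT, 1942 ± 236 in E3 and 1500.0 ± 93.0 in E5. It fell in E5 by a log2 fold change of -0.44 ± 0.12 (adjusted p 0.023), and E5 was below E3 by -0.37 ± 0.12 (adjusted p 0.032). The call against WT was lost without WT replicate 2, WT replicate 3, E5 replicate 2 or E5 replicate 3 (adjusted p 0.0574 to 0.103). That against E3 was lost without WT replicate 2, E3 replicate 1, E5 replicate 2 or E5 replicate 3 (adjusted p 0.0578 to 0.126), and with only the clones fitted.

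mt-Co1, the catalytic subunit of complex IV, had 5849, 5734 and 5913 CPM in WT, 6018, 4506 and 5136 in E3, and 5163, 4818 and 5470 in E5. The E5 libraries were below WT and E3 spanned both, with no call (-0.16 in E3, -0.18 in E5). Its level was 3775 CPM per kb in WT, read with the limit given for its copied part. Among complex I genes, mt-Nd4 had 611.9, 634.0 and 646.4 CPM in WT, 654.1, 518.3 and 726.8 in E3, and 564.7, 495.5 and 541.0 in E5. Here too E5 lay below WT and E3 lay on both sides, and no comparison passed (0.01 in E3, or -0.11 without E3 replicate 3, and -0.24 in E5). In E5 against WT mt-Nd4 was called without E3 replicate 3, at -0.24, and in E5 against E3 it was called without E3 replicate 2, at -0.37 where all libraries gave -0.25. The log2 fold changes of the rest in E3 and E5 were 0.17 and -0.08 for mt-Nd1, 0.00 and 0.04 for mt-Nd2, -0.10 and -0.18 for mt-Nd5, and 0.37 and 0.30 for mt-Nd6, none of them called. Leaving out E3 replicate 3 gave 0.05, -0.07, 0.02 and 0.27 for these genes in E3, the middle pair with the other sign. mt-Nd6 lies on the other strand from the rest, overlaps mt-Nd5 over bases 13552 to 13565, and at 62.3 CPM per kb in WT was far below the others outside the copied segment.

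**Figure D5:**
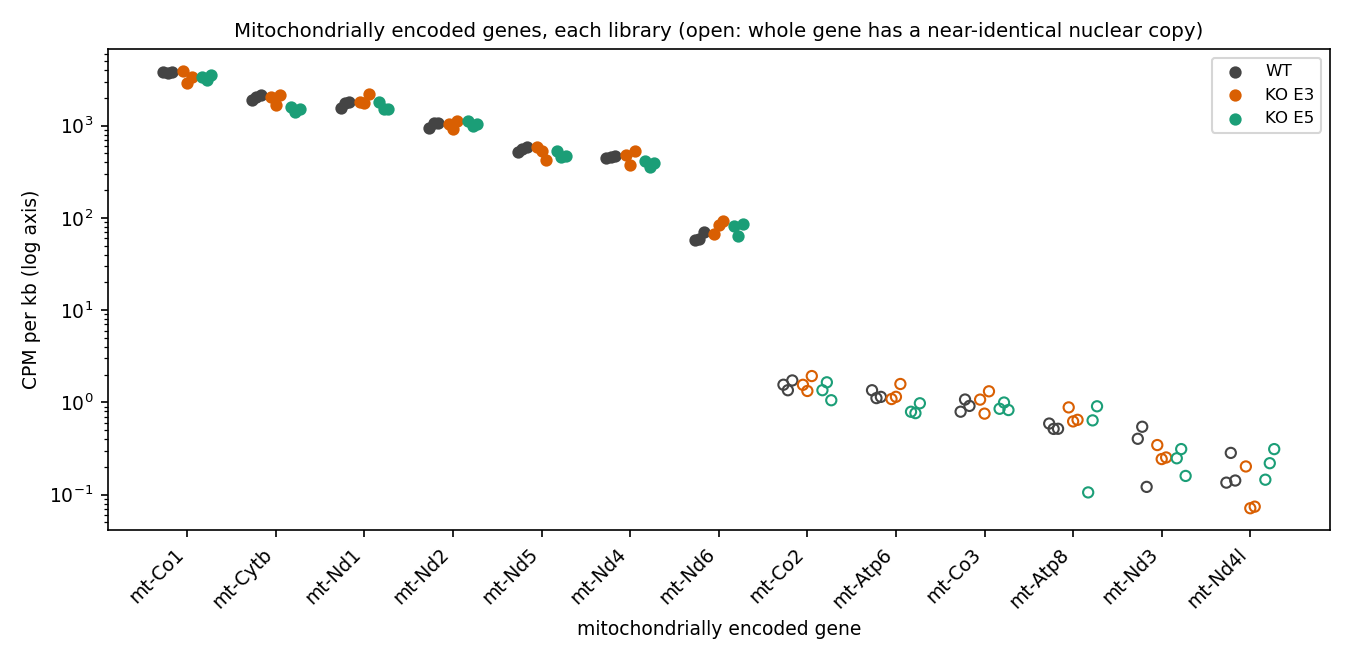
CPM per kilobase of gene (vertical log axis) of the mitochondrial genes in the libraries of WT, KO E3 and KO E5, with open symbols for genes that lie wholly in the segment copied on chromosome 1. mt-Co1 is at 3775 in WT, 3379 in KO E3 and 3334 in KO E5 on average, and the open symbols lie below all filled ones.

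As a share of all counts, the 13 mitochondrial genes made up 1.22%, 1.24% and 1.29% in WT, 1.32%, 1.07% and 1.28% in E3, and 1.12%, 0.999% and 1.1% in E5. E3 overlapped both other lines, and each E5 library was below each WT library. PolyA selection catches mitochondrial transcripts in part, so the share is of captured RNA. Histone genes taken by symbol, whose transcripts mostly lack a poly(A) tail, had 13 of 38 called higher and 1 lower in E3 and 8 called higher in E5. Of all genes tested, 15.7% were higher and 14.7% lower in E3, and 8.96% were higher in E5. Without H1f0 and H1f10, which are not replication-dependent, 11 of 36 were higher and 1 lower in E3, and 7 were higher in E5. Whether capture differed between the lines was not tested. The 6 genes inside the copied segment gave 0.02% to 0.0296% of these counts, so the share and the ratio to nuclear counts cover 7 genes in effect. The mean was 1.25% ± 0.0372 (SD, n = 3) in WT, 1.22% ± 0.132 in E3 and 1.07% ± 0.0643 in E5. By a two-sided exact permutation test, which with 3 libraries a side cannot go below 0.1, p was 0.9 for E3 (difference -0.0275 points), 0.1 for E5 (-0.179) and 0.3 between the clones (-0.151). Without E3 replicate 2 the E3 difference turned to 0.0478, and without E3 replicate 3 it was -0.0531. That between the clones was -0.227 without E3 replicate 2. With TMM-scaled library sizes as the denominator it was -0.0994, and the E3 difference was -0.0564.

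The nuclear members together made up 0.885%, 0.870% and 0.846% in WT, 0.880%, 0.894% and 1.27% in E3, and 0.978%, 0.965% and 0.935% in E5. E3 replicate 3 was the highest of all, its fellows were near WT, and E5 was above WT throughout. The same test gave a difference of 0.147 points for E3 (exact p 0.2), 0.0921 for E5 (exact p 0.1) and -0.0551 between the clones (exact p 1.0). With E3 replicate 3 left out the E3 difference was 0.0198 (exact p 0.4) and that between the clones turned to 0.0723 (exact p 0.2, the least possible with 2 libraries against 3). Mitochondrial over nuclear counts gave a ratio of 1.44 ± 0.0769 (SD, n = 3) in WT, 1.24 ± 0.251 in E3 and 1.12 ± 0.0733 in E5. The difference from WT was -0.208 in E3 (exact p 0.3) and -0.326 in E5 (exact p 0.1, the least possible). Leaving out E3 replicate 3 made the E3 mean 1.35 and its difference -0.0922 (exact p 0.6), and that between the clones went from -0.118 to -0.234 (exact p 0.2).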

How the data were processed

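Polyadenylated RNA of cultured LLC cells was sequenced in 3 libraries each of WT, CD47 KO clone E3 and CD47 KO clone E5. The authors deposited raw read counts per gene, made according to their processing notes with FastQC, Trimmomatic and STAR alignment to GRCm39. The counter, the strand setting, the treatment of reads that align in several places and the annotation release are not given in the sources used here. Total counts were 44257404 to 55095219 per library, and 14593 of 50813 genes passed filterByExpr (minimum count 10, minimum total 15). All 3 lines were fitted together with edgeR 4.0.16 (TMM scaling, quasi-likelihood test, R 4.3.3), giving 3 comparisons. A gene was called at a Benjamini-Hochberg adjusted p under 0.05 over all genes tested, and a stricter count adds an absolute log2 fold change above 1. The standard error (SE) of a log2 fold change is its size divided by the square root of the F statistic. The p-values refer to libraries within a line and not to separate clones. The pipeline was tested on simulated data. CPM uses TMM-scaled library sizes, per-library log2 values add 0.5, and levels per kb use the length of the Ensembl canonical transcript in GENCODE M39.

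Alternatives were DESeq2 1.42.0, DESeq2 size factors, upper-quartile scaling, scaling without mitochondrial genes, no filter, a minimum of 10 counts in all libraries, a fit of only the lines compared, the replicate number as a block, and leaving out each library. The rule for members, the alternatives and the naming rule were set before the data were examined, but with earlier results from these data known. That rule named 65 members: the mitochondrial genes, core subunits, isoform pairs, genes passing the stricter count, and the 5 highest and 5 lowest nuclear fold changes of each comparison. From each other list it named the 3 genes of smallest p in each comparison with WT. Those lists, written from general knowledge, were assembly factors outside the rule, electron carriers and coenzyme Q enzymes, mitochondrial transcription, RNA processing and DNA replication, nuclear regulators, the TCA cycle, carriers with import and chaperones, mitochondrial ribosomal proteins, and markers of carcinoma, lung epithelium, leukocytes, endothelium and muscle. Lists for library composition (histones by symbol, transcripts with absent or unusual poly(A) tails, mitochondrial tRNAs) were only counted and summed. Shares of counts were compared by two-sided exact permutation (Python 3.11.15, scipy 1.17.1). For the mitochondrial share, counts of protein-coding genes and TMM-scaled library sizes were the alternative denominators. The values without E3 replicate 3 of other lists, complexes, the nuclear share and the ratio, the median over 7 mitochondrial genes, the shares of all genes under the alternatives, the histones without H1f0 and H1f10, the alternatives for genes outside the naming rule, and the checks of length, sequence copies (blastn 2.17.0, samtools 1.23.1) and promoter words, were chosen after seeing the data. Figures were drawn with matplotlib 3.10.9.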

Additional observations from a re-analysis of the deposited data

Results flagged for a closer look

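For the genes below the direct test of E5 against E3 passed, so the effects of the clones relative to WT differ, and each value is the log2 level in E5 minus that in E3. The edited gene itself, Cd47, was at -1.36. Among members made in the nucleus and higher in E5, Ndufaf4 was at 0.73, Ndufaf6 at 0.68, Ndufb4 at 0.53, Sdha at 0.34 and Atp5f1b at 0.32. Those lower in E5 were Ndufv3 at -0.89, Atp5me at -0.64, Ndufa3 at -0.61, Cox8a at -0.47 and Atp5f1c at -0.43. The mitochondrial gene mt-Cytb was at -0.37. Ndufv3, Ndufaf4 and Ndufaf6 kept the call whichever library was left out, and under every other alternative. The other members' calls were lost without libraries given with each gene above and when only the clones were fitted. For Atp5me, Ndufa3, Cox8a and Atp5f1c the value shrank to -0.33, -0.26, -0.21 and -0.26 without E3 replicate 3.

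From the other lists only the genes named by smallest p against WT are given, so this is not every call between the clones. Of all genes tested, 31.9% were called in this comparison. The counts called in each list are given under the other observations. Among the nuclear regulators, for example, the lowest value was -1.34, in a gene the rule did not name. Of the genes named, Coq8a was at 1.95, Coq3 at 1.15, Ppargc1b at 0.90, Supv3l1 at 0.89, Hspa9 at 0.84, Tomm70a at 0.70, Lonp1 at 0.69 and Prorp at 0.63. Gabpa followed at 0.59, Hif1a at 0.58, Suclg2 at 0.52, Elac2 at 0.49, Dld at 0.45 and Mrpl19 at 0.44. Dmac1 was lower in E5, at -1.02. These held under every alternative. Others did not hold without some libraries. Slc25a5 at 0.46 and Dlst at 0.33 were lost without E5 replicate 1 or E5 replicate 2, with adjusted p up to 0.0621 and 0.0754, and with only the clones fitted, Slc25a5 also under upper-quartile scaling and Dlst also with no filter. Polrmt at 0.35 was lost without E5 replicate 2, with adjusted p up to 0.0599, with only the clones fitted and under upper-quartile scaling. Mrpl11 at -0.62 was lost without E5 replicate 2 or E5 replicate 3, with adjusted p up to 0.0685, and was -0.39 without E3 replicate 3. Chchd3 at -0.33 was lost without WT replicate 2, WT replicate 3 or any E5 replicate, with adjusted p up to 0.095. Foxred1 at -0.32 was lost without WT replicate 2, E3 replicate 1 or any E5 replicate, with adjusted p up to 0.103. Chchd3 and Foxred1 were also lost with only the clones fitted and with no filter.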

How the results depend on the processing

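Over the alternatives, the log2 fold changes of the members named by rule kept direction and side of the threshold in 2669 cases, gained a call in 77 and lost one in 86. Another 114 changed sign with no call on either side, 29 of them without E3 replicate 3. Of 23 calls among them, 8 held under every alternative in which they were tested. Cox6a2 had 16 alternatives where the others had 17, since it was not tested with a minimum of 10 counts in all libraries. Without E3 replicate 3, 4 values turned and passed the threshold: Cox5b to -0.24 in E3 (0.16 without E3 replicate 1) and to 0.25 in E5 against E3 (-0.16 without E3 replicate 1), Ndufa4 to -0.25 in E3 (0.17 without E3 replicate 1) and Sdhb to -0.17 in E3 (0.18 without E3 replicate 1). The 9 nuclear calls in E3 became 16 by DESeq2, 16 with no filter, and 5 to 28 on leaving out 1 library. Of all genes 34.2%, 16.7% and 19.3% to 43.2% were called in these fits, and 30.5% in the main one. The 4 in E5 became 34 with only WT and E5 fitted, 1 with the replicate number as a block and 1 to 29 on leaving out 1 library. The shares of all genes called were 46.8%, 15.8% and 11.9% to 42.0%. The 10 between the clones became 3 with only the clones fitted, 4 with the block and 3 to 39 on leaving out 1 library. Among all genes 22%, 26.6% and 21.7% to 44.1% were called in these fits, and 31.9% in the main one. Mitochondrial calls became 3 in E5 with only WT and E5 fitted, and 0 between the clones with only the clones fitted and 0 with the block. On leaving out 1 library they ranged from 0 to 1 in E3, 0 to 2 in E5 and 0 to 2 between the clones. The mitochondrial share difference in E3 ran from -0.0771 without E3 replicate 1 to 0.0478 without E3 replicate 2, where it turned, and the nuclear share difference between the clones turned to 0.0723 without E3 replicate 3. The block ended the calls of Atp5f1a, Sdha and Cox7b in E5, of Atp5mc3 in E3, and of Atp5f1b, Atp5f1c, Atp5me, Cox8a, Ndufa3, Ndufb4, mt-Cytb, Chchd3 and Foxred1 between the clones. The cause was not tested. Libraries with the same replicate number did not pair: 9 such correlations ran from -0.172 to 0.047. For shares the block cannot give a p below 0.25. Upper-quartile scaling left the direction of the nuclear median in each comparison as it was. For genes named from other lists and members named after their values were seen, added after seeing the data, 1734 cases kept direction and side, 9 changed sign with no call, 42 gained a call and 153 lost one. Depth limits genes of few counts, such as the tissue forms of complex IV subunits.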

Other observations

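Lists of genes around oxidative phosphorylation were counted in the same way. Over all genes tested, 15.7% rose and 14.7% fell in E3, 8.96% rose and 11.7% fell in E5, and 14.7% were higher and 17.2% lower in E5 than in E3. Without E3 replicate 3 the shares were 21.8% and 21.5% in E3, 20.8% and 21.2% in E5 (42.0% either way), and 22.4% and 21.7% between the clones. No test compares these lists with the subunits or with all genes. Of 33 genes for mitochondrial transcription, RNA processing and DNA replication, 16 fell and 1 rose in E3 (median -0.32), 4 fell and 1 rose in E5 (median 0.00), and 14 were higher and 1 lower in E5 than in E3 (median 0.28). Without E3 replicate 3 the counts in E3 were 20 and 1, so that list did not rest on it. Supv3l1, a helicase with a part in the degradation of mitochondrial RNA, had 40.6, 41.1 and 40.6 CPM in WT, 23.5, 22.8 and 22.2 in E3, and 41.6, 42.2 and 43.2 in E5. The E3 libraries lay apart from the 6 others. It fell in E3 by a log2 fold change of -0.84 (adjusted p 5.8e-05). The mitochondrial RNA polymerase Polrmt was at -0.50 in E3 and the tRNA processing enzyme Elac2 at -0.61. In E5 Prorp, the other tRNA processing enzyme, rose by 0.52 and Fastk fell by 0.58 on the log2 scale.

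Among 28 carriers, pores, import factors and chaperones 9 fell and 2 rose in E3, 3 fell and 2 rose in E5, and 12 were higher and 1 lower in E5 than in E3. The E3 counts were 16 and 2 without E3 replicate 3, and those between the clones 19 and 1. Lonp1, the matrix protease, had 835.0, 787.4 and 729.3 CPM in WT, 280.8, 278.7 and 278.2 in E3, and 355.5, 445.1 and 547.3 in E5. Both clones were below WT, with E3 the lowest. It fell by a log2 fold change of -1.49 in E3 and -0.80 in E5. Hspa9, the matrix chaperone, was at -1.08 in E3, Tomm70a, an import receptor, at -0.65, and in E5 Slc25a5, an ADP/ATP carrier, at 0.59 and Chchd3 at -0.48.

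Of 20 electron carriers and coenzyme Q enzymes, 3 fell in E3 and none rose (edgeR 0, with 6 genes either way at unadjusted p below 0.05 and 5 called by DESeq2), 2 rose and 2 fell in E5, and 3 were higher and 1 lower in E5 than in E3. The E3 counts were 8 down and 0 up without E3 replicate 3, and between the clones 7 were higher and 1 lower. Coq3, a methyltransferase, had 11.2, 10.4 and 9.35 CPM in WT, 6.90, 6.02 and 7.50 in E3, and 14.3, 15.3 and 15.7 in E5, the 3 lines being apart. It was at -0.60 in E3 and 0.55 in E5. Coq8a was at 1.23 in E5, called under every alternative.

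Among 49 assembly factors outside the naming by symbol, 4 rose and 6 fell in E3 (4 and 16 without E3 replicate 3), 1 rose and 3 fell in E5, and 3 were higher and 6 lower in E5 than in E3 (16 and 6 without that library). Coa7 fell in both clones, at -0.50 and -0.53, Sco1 fell in E3 at -0.48, and Pet100 rose in E3 at 0.83. Of 19 genes of the TCA cycle and pyruvate entry, 2 rose and 3 fell in E3 (2 and 7 without E3 replicate 3), 4 rose and 0 fell in E5 by edgeR (6 either way at unadjusted p below 0.05, 5 by DESeq2), and 5 were higher and 0 lower between the clones by edgeR (7 either way at unadjusted p below 0.05, 7 by DESeq2; 10 and 1 without E3 replicate 3). Of 12 nuclear regulators, 2 fell and 0 rose in E3 by edgeR (6 either way at unadjusted p below 0.05, 4 by DESeq2), 1 fell in E5, and 4 were higher and 1 lower in E5 than in E3. The regulators had 3 down and 1 up in E3 without E3 replicate 3. Of 78 mitochondrial ribosomal proteins, 9 rose and 7 fell in E3, 1 rose and 1 fell in E5, and 6 were higher and 4 lower in E5 than in E3. Without E3 replicate 3 they had 9 up and 42 down in E3, 16 and 15 in E5, and 27 and 4 between the clones. Mrpl19 was at -0.83 in E3. Leaving out E3 replicate 3 also raised the calls in E5 against WT, to 10 of the transcription list, 16 of the carriers, 8 of the coenzyme Q list, 16 assembly factors, 10 of the TCA list and 4 regulators.

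The marker lists served to check the cells. All 9 carcinoma and mesenchymal genes were listed, of which Epcam had 0 counts in every library, and 7 were tested, with 2 up and 3 down in E3, and 4 up and 0 down in E5 by edgeR (5 either way at unadjusted p below 0.05, 4 by DESeq2), and 3 higher in E5 than in E3. Without E3 replicate 3 the counts were 2 up and 4 down in E3, 6 up and 1 down in E5, and 5 higher in E5 than in E3. Vim was the most abundant of this list. With all libraries, Vim and S100a4 were called higher in both clones against WT. Krt8, Krt18 and Krt19 were called lower in E3, and Krt8 and Krt18 higher in E5. Cdh2 and Fn1 were called in neither. Of 6 lung epithelium genes 5 were at 0 throughout, and Foxj1 had at most 10 counts, with summed levels of 0.0185 to 0.211 CPM. Of 7 leukocyte genes Cd68 was the most abundant, 5 had at most 3 counts in any library, and Lyz2 had 7 to 21 in WT and E3 and at most 2 in E5, where it was the single call against WT. The 4 endothelial genes had at most 5 counts each. Of the 5 muscle genes Des was the most abundant, at 7 to 56 counts, with a list sum of 0.215 to 1.34 CPM. It alone was tested and was lower in E5 than in E3, at -1.35, a call that was lost without E3 replicate 3, where it was -1.05. Each E3 library was above each WT library for Des, with a log2 fold change of 1.16, or 0.874 without E3 replicate 3. The edgeR test did not call this rise (adjusted p 0.075), and DESeq2 did.

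The lists for library composition were counted too. Of 73 histone genes taken by symbol, 38 were tested, with 13 up and 1 down in E3 (median 0.78), 8 up and 0 down in E5 by edgeR (15 either way at unadjusted p below 0.05, 10 by DESeq2; median 0.83), and 1 higher and 7 lower in E5 than in E3 (median -0.02). The counts were 11 and 2, 15 and 0, and 3 and 7 without E3 replicate 3. The medians were then 0.63 in E3, 0.86 in E5 and 0.26 between the clones, where the direction turned. Their summed levels were 331, 324 and 344 CPM in WT, 567, 471 and 645 in E3, and 387, 355 and 311 in E5. Most of that sum was H1f0, which with H1f10 is not a replication-dependent histone. Without that pair the sums were 45.5, 45.9 and 45.3 in WT, 67.3, 67.7 and 93.5 in E3, and 66.0, 55.2 and 46.1 in E5, all KO libraries above WT and E5 replicate 3 barely so. Then 11 rose and 1 fell in E3 (9 and 2 without E3 replicate 3), 7 rose in E5 (14 without that library), and the medians were still 0.78 and 0.83. Without that library these medians were 0.595 and 0.861. Whether expression, growth or capture of RNA without poly(A) tails differed cannot be told apart. Of 5 entries for RNA with absent or unusual poly(A) tails 2 had 0 counts, and 1 of the 3 tested rose in E3, Rpph1 with at most 77 counts. In E5 edgeR called 0 (0 at unadjusted p below 0.05, 0 by DESeq2), and 1 was higher in E5 than in E3. The list summed to 767, 726 and 790 CPM in WT, 752, 556 and 792 in E3, and 971, 829 and 914 in E5, mostly Neat1. No mitochondrial tRNA gene was in the count table.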
